A study of Bos taurus with 15 samples.

Results

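The biceps brachii of 7 control cattle (C17, C18 and C20 to C24), of 15 animals in the series, was profiled on 1-colour Agilent bovine oligonucleotide arrays, with 1 array per animal. The animals were chosen by their label CONTROL alone, and the other 8 animals of the series, given prednisolone, enter no comparison here. Total RNA came from muscle taken at slaughter and was extracted with an RNeasy Mini kit. The protocol text attached to these samples names Finaplix for 92 days, Revalor for 89 days, and Revalor with dexamethasone at 0.7 mg per day for 40 days. Finaplix and Revalor are growth-promoting implants and dexamethasone is a glucocorticoid, and no control label carries a code for any of them. Breed, age and sex are not stated in the labels, and nothing states that the animals shared a herd or a slaughter day. Animal, RNA extraction and array therefore cannot be told apart in any difference between animals described here.

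Biceps brachii is a limb muscle of mixed fibres. Slow fibres carry their own set of myosins and troponins, are rich in myoglobin and mitochondria and burn fat and glucose with oxygen, whereas fast fibres carry another set and rely more on glycolysis. Between the fibres lie connective tissue, vessels, nerves, fat cells and resident immune cells, whose transcripts are measured together with those of the fibres. In such bulk tissue fewer cells of a type and less RNA per cell cannot be told apart.

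The arrays held 42990 spots for 21475 probes, and 80.9% ± 5.23 (SD, n = 7) of the spots had a value, from 72.1% on C17 to 87.5% on C20. All values below are log2 intensities after the 75th percentile of each array was set equal. After probes with an uncertain name were left out, 15742 genes were measured and 11974 had a value on every control array. A gene was called bright when it had a value on all 7 arrays and a mean at or above the 75th percentile of such genes, which was a log2 intensity of 10.82 and gave 2994 genes. Pairwise correlations between arrays across genes, which are not independent replicates, ran from 0.926 (C17 with C20) to 0.986 (C22 with C24). C20 stood farthest from the rest, with a median correlation of 0.948 with the other arrays. On C20 the median gene lay 0.14 below its mean over the animals, a shift to which its class scores below can be compared, and results that C17 and C20 could carry are also given without them.

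Most measured skeletal muscle markers lay at the top of the intensity range, but TNNT3 and TTN lay lower. The slow myosin heavy chain MYH7 measured 18.05 ± 0.10 (SD, n = 7), skeletal actin ACTA1 17.59 ± 0.12, the muscle creatine kinase CKM, which buffers ATP, 16.78 ± 0.23, and the intermediate filament desmin (DES) 16.80 ± 0.18. The fast troponin TNNT3 measured 13.41 ± 0.96, and titin (TTN) measured 9.78 ± 1.09 and was not a bright gene. MYH2 had no usable probe, and neither did the slow troponin TNNI1. A probe's intensity depends on its sequence as well as on its transcript, so the order of genes and classes below is an order of signal and not of transcript number. Class levels are given as percentiles of intensity within an array, where a gene with no value counts as 0. The level of a class is the median over its measured members on an array, averaged over the 7 animals.

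Contractile genes led the 32 classes, which hold 694 genes, 646 of them measured. Slow fibre genes lay at the 99.8th percentile ± 0.088 (SD, n = 7; 13 measured of 14) and fast fibre genes at 99.8 ± 0.12 (12 of 14). These neighbours in the order lay within each other's spread. Ribosomal proteins followed at 99.0 ± 0.13, glycolysis and glycogen enzymes at 98.8 ± 0.20, the sarcomere genes that both fibre types share at 98.5 ± 0.21 and the respiratory chain at 98.3 ± 0.24. The step from fast fibre genes to ribosomal proteins exceeded the sum of the SDs, and the steps from there down to the respiratory chain did not. The proteasome, which degrades tagged proteins, lay at 95.1 ± 0.46 and the citric acid cycle at 94.4 ± 0.43.

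**Figure D1:**
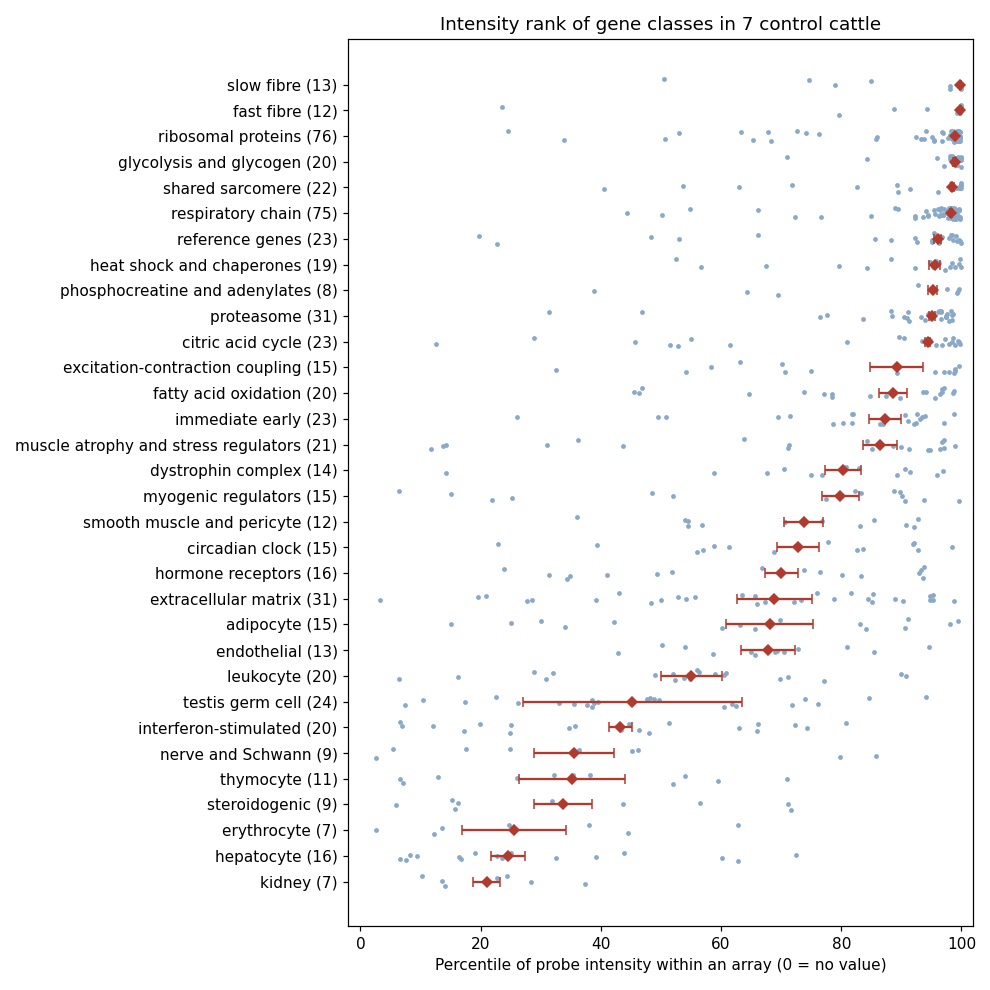
Intensity rank of the 32 gene classes in the 7 control animals. The x axis is the percentile of intensity within an array, each blue point is 1 gene at its mean over the animals, the red diamond is the class median averaged over animals and its bar the SD between animals, and the number of measured genes stands in brackets. Contractile, ribosomal and energy classes lie at the right, and the testis germ cell class has the widest bar (SD 18.2).

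Further muscle and regulatory classes lay lower, and their percentiles spread more widely between animals. In log2 this held for some of them only. The median SD was 0.36 for excitation-contraction coupling, 0.34 for fatty acid oxidation and 0.37 for hormone receptors, against 0.33 for slow and 0.35 for fast fibre genes. It was 0.69 for atrophy and stress regulators, 0.50 for myogenic regulators and 0.42 for clock genes. Excitation-contraction coupling genes, which link the nerve signal to calcium release, lay at 89.2 ± 4.38, fatty acid oxidation at 88.6 ± 2.31 and the regulators of muscle atrophy and stress at 86.5 ± 2.87. Myogenic regulators lay at 79.9 ± 3.12, clock genes at 72.8 ± 3.44 and hormone receptors at 70.1 ± 2.78. The growth hormone receptor GHR measured 13.04 ± 0.15, but its second probe read 8.69. The difference between its 2 spots departed from its mean over the arrays by up to 1.22. The glucocorticoid receptor NR3C1 measured 11.16 ± 0.16, from 10.91 on C20 to 11.38 on C21.

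Classes of the cells around the fibres followed. Extracellular matrix genes lay at 68.8 ± 6.25, adipocyte genes at 68.1 ± 7.26 and endothelial genes at 67.9 ± 4.45, a difference smaller than the spread between animals. Leukocyte genes lay at 55.0 ± 5.07 and nerve and Schwann cell genes at 35.5 ± 6.66. Hepatocyte genes at 24.6 ± 2.89 and kidney genes at 21.03 ± 2.26, from tissues that a muscle sample should lack, closed the order. Other such classes lay higher, with testis germ cell genes at 45.25 ± 18.2, thymocyte genes at 35.2 ± 8.885 and steroidogenic genes at 33.7 ± 4.835. Erythrocyte genes lay at 25.5 ± 8.62. Of the kidney genes 2 of 7 were well above background on all 8 arrays of the treated animals, the only arrays whose detection flags were used here. The leading kidney gene, the phosphate transporter SLC34A1, measured 5.23 ± 0.28.

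The brightest single probes were those of the contractile and glycolytic machinery. The slow and cardiac troponin C, TNNC1, which binds the calcium that starts contraction, led with a lowest value of 18.61, a median of 19.03 and a highest of 19.16. C18 was the lowest animal for TNNC1. Its probe was also the only one with a saturated spot on the treated arrays, and whether this bounds its values was not tested. Myoglobin (MB), the oxygen store of oxidative fibres, ran from 18.62 on C24 over a median of 18.69 to 18.93 on C18. The fast troponin C, TNNC2, ran from 18.03 on C17 over 18.41 to 18.65 on C18. The glycolytic enzymes ALDOA (18.41 ± 0.13) and GAPDH (18.26 ± 0.14) and the mitochondrially encoded cytochrome oxidase subunits COX2 (18.20 ± 0.068) and COX3 (18.18 ± 0.080) followed, then the fast fibre Z-disc protein MYOZ1 (18.17 ± 0.11), the slow myosin light chain MYL2 (18.12 ± 0.071) and MYH7.

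The SD between animals had a median of 0.37 over all genes with 7 values and of 0.28 over bright genes (0.24 without C17 and C20). Over 4 equal bins of genes, from dim to bright, it was 0.53, 0.42, 0.33 and 0.28. Of the bright genes 739 (24.7%) had an SD under 0.2 and 35 (1.17%) an SD over 1, with 31 over 1 when C17 and C20 were left out. The spread between animals was larger than that between duplicate spots of an array for most bright genes. Of the bright genes 2971 had 2 spots on all 7 arrays, and the SD between animals was 7.53 times the error of the mean of 2 spots for their median gene. Duplicate spots share extraction, labelling, hybridization and scan, so error from those steps is part of the spread between animals. A moderated F test (limma, Benjamini-Hochberg) called 9635 of 10139 probes different between arrays at an adjusted p of 0.05, which is 95.0% of them, and 9856 (97.2%) when spot position was a term. Among bright genes it called 2848 of 2971. Of the fast fibre genes 7 of 11 were called (10 with spot position) and of the slow fibre genes 9 of 13 (11), with MYH7, MYL2, TNNC1 and MB among those not called. All 72 respiratory chain and 23 matrix genes tested were called.

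**Figure D2:**
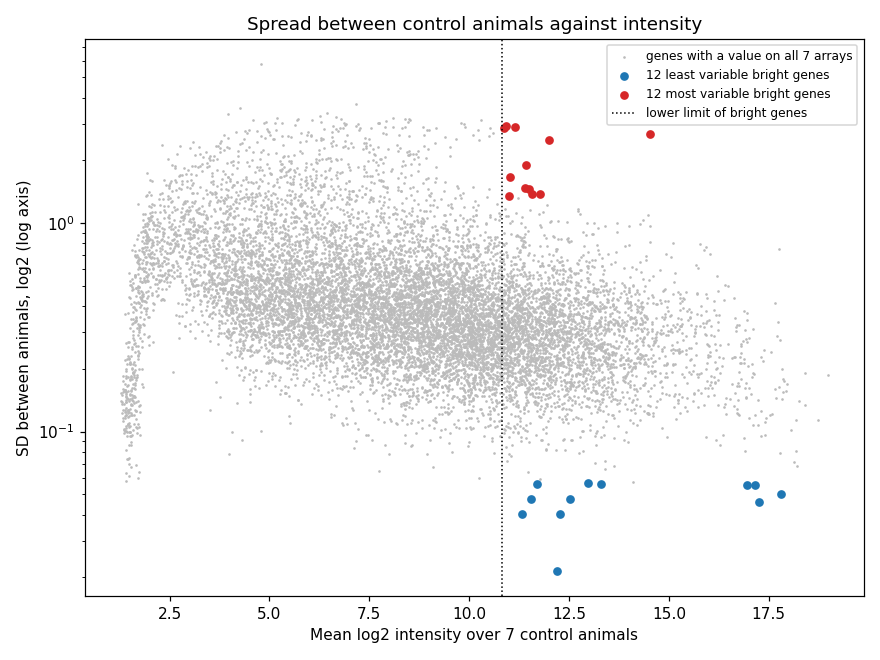
SD between the 7 control animals (y axis, log scale, log2 units) against mean log2 intensity (x axis), 1 grey point per gene with a value on all 7 arrays. Blue points are the 12 least and red points the 12 most variable bright genes, which lie to the right of the dotted line at 10.82.

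The 12 least variable bright genes were selected for their small SD and are hence given without a test. Glycogen synthase kinase 3 alpha (GSK3A), which restrains glycogen synthesis, had the smallest SD, 0.022, with values from 12.18 on C20 over a median of 12.19 to 12.23 on C24. That SD is under the error of the mean of 2 spots, 0.053, and the same holds for 13 bright genes in all, so their order is not resolved. A second GSK3A probe read 5.36 with an SD of 0.28. KLHL26, TRIOBP, EFL1, RWDD4, SUMO3, TWNK and ZC3HC1 had SDs from 0.040 to 0.057. Those of KLHL26 and SUMO3 were also under the error of the mean of 2 spots, 0.072 and 0.064. EFL1 releases the large ribosomal subunit for use, SUMO3 is a small protein modifier and TWNK is the helicase of mitochondrial DNA.

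The other 4 of the 12 were among the brightest of all genes. FHL1, a LIM-domain protein of the sarcomere, ran from 17.16 on C20 over 17.26 to 17.30 on C23 (SD 0.046). The fast alkali light chain MYL1 ran from 17.74 on C20 over 17.80 to 17.88 on C17 (SD 0.050). Myotilin (MYOT), a Z-disc protein, had an SD of 0.056, with values from 16.86 on C24 to 17.03 on C20. The linker histone H1-10 had an SD of 0.056 as well. No animal stood out in these genes, and C20 was the lowest for 3 of them, against 30.2% of all genes with 7 values. The SDs of MYL1, MYOT and H1-10 were under the error of the mean of 2 spots (0.073, 0.070 and 0.059). The order of the animals in these is therefore not resolved. The next gene outside the 12, the haem synthesis enzyme ALAS1, had an SD of 0.058 against 0.057 for ZC3HC1, the last inside.

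Customary reference genes differed in spread. The ribosomal stalk protein RPLP0 varied least (SD 0.12), from 16.97 on C20 over 17.13 to 17.33 on C24. RPS18 had an SD of 0.13, beta-actin (ACTB) 0.13 and GAPDH 0.14, so that these 4 lay at or below the 8.32th percentile of SD among bright genes. The prolyl isomerase PPIA, at the other end, had an SD of 0.49 (0.25 without C17 and C20), from 12.97 on C21 over 13.48 to 14.54 on C17. YWHAZ, a dim gene here, had an SD of 0.95, from 5.77 on C18 over 6.61 to 8.54 on C20. HPRT1 averaged 2.99 and was well above background on 0 of the 8 treated arrays, and GUSB had values on 5 control arrays and was well above background on 2 treated ones, so neither level is interpreted. The transcription factor TBP was dim but steady, at 9.10 ± 0.16.

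**Figure D3:**
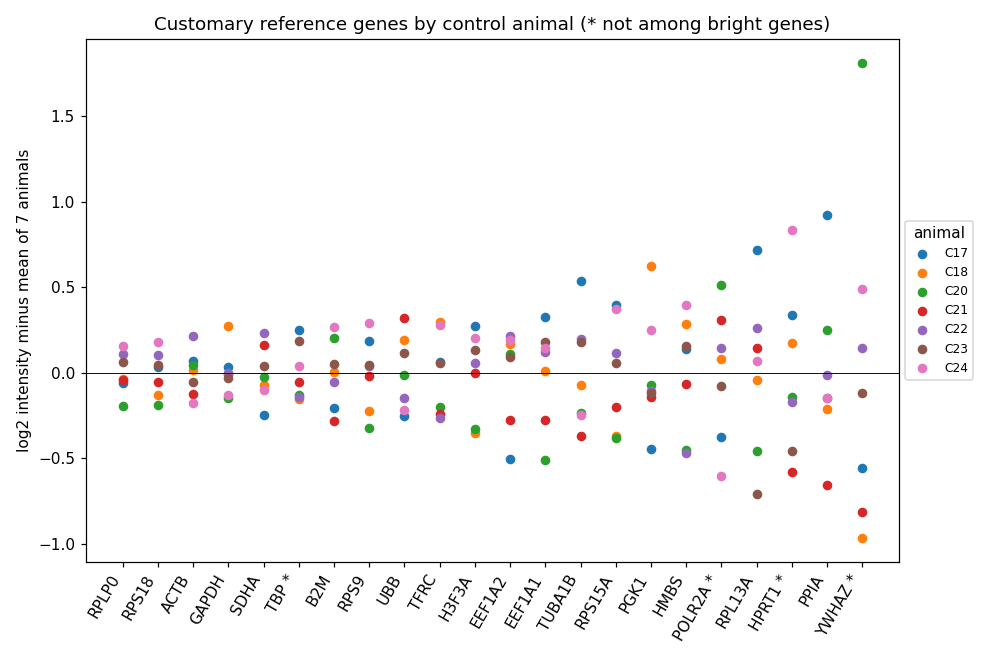
Deviation of each control animal (coloured points) from the mean of the 7 animals, in log2 intensity, for 22 reference genes with a value on all arrays, ordered from the smallest to the largest SD. RPLP0, RPS18, ACTB and GAPDH have the smallest SDs, at the left, and C17 is the highest point for PPIA and C20 for YWHAZ.

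The 12 most variable bright genes, again given without a test, included several known from testis and sperm. The axonemal dynein assembly factor DNAAF1 had an SD of 2.93, from 7.15 on C17 over 10.93 to 15.32 on C20. HSPB9, a small heat shock protein of testis, ran from 7.48 on C18 over 11.52 to 15.18 on C20. The sperm tail and centriole protein ODF2 ran from 9.05 on C18 over 12.03 to 16.13 on C20. C20 was the highest animal for these, for protamine 1 (PRM1), for C15H11orf71 and for PHKG2, a catalytic subunit of phosphorylase kinase, and thus for 6 of the 12. It was highest for 16.5% of all genes with 7 values and for 11 of the 35 bright genes with an SD over 1. The mean that made a gene bright includes C20, so these counts of bright genes are partly set by that limit. Leaving out C20 took DNAAF1, HSPB9, C15H11orf71 and PHKG2 off the list, while PRM1 and ODF2 stayed. A second ODF2 probe read 3.97, also highest on C20, with r = 0.241 to the first. DNAAF1, HSPB9 and PRM1 were well above background on 6, 5 and 6 of the 8 treated arrays.

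A pair of genes on the list had a single low animal. The vesicle protein synaptotagmin 4 (SYT4) measured 4.52 on C20 and 10.84 to 12.62 on the other animals. The glutathione transferase GSTO1 measured 7.33 on C22 and 11.26 to 12.71 elsewhere. Its relative GSTT1 was lowest on C17 at 7.88 and next lowest on C20 at 9.84, with a median of 11.45 and a highest value of 12.83 on C24.

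MYOD1, the transcription factor that commits cells to muscle, ran from 9.49 on C17 over 11.47 to 13.80 on C21 (SD 1.47). ANGPTL4, a fasting-induced inhibitor of lipoprotein lipase, ran from 9.14 on C17 over 11.22 to 14.07 on C21 (SD 1.46). Both were thus lowest on C17 and highest on C21. The forkhead repressor FOXN3 had the smallest SD of the 12, 1.35, next to 1.32 for KIZ outside.

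**Figure D4:**
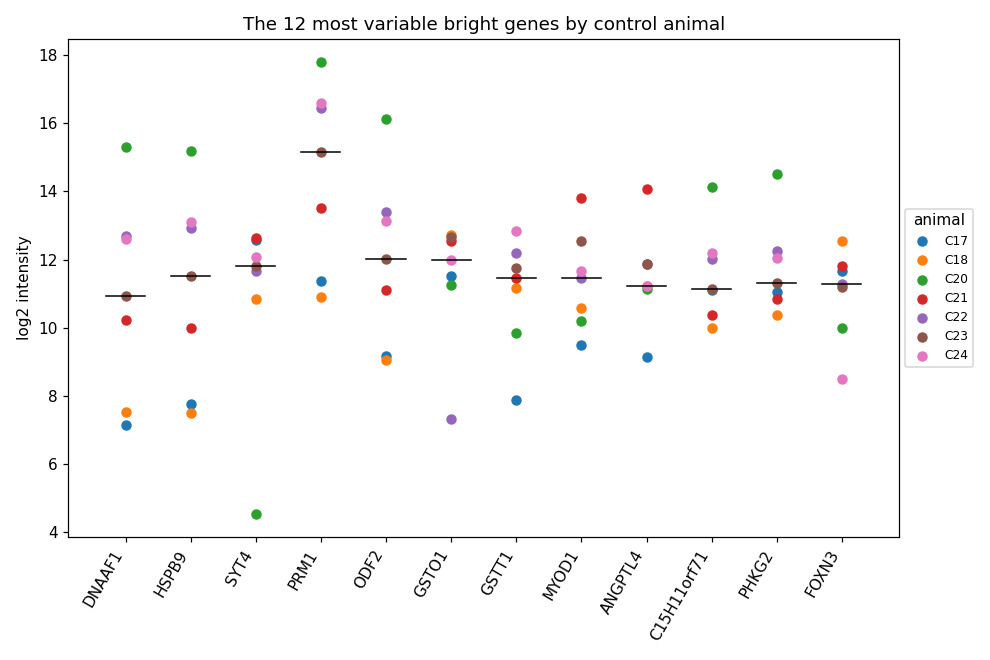
log2 intensity (y axis) of the 12 most variable bright genes in each control animal (coloured points), with the median as a black bar, ordered by SD from left to right. C20 is the highest point for 6 genes and the lowest for SYT4, and C22 is the lowest for GSTO1.

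Without C17 and C20, 6 of these 12 genes stayed in the list, PRM1, HSPB9, GSTO1, ODF2, FOXN3 and MYOD1. The genes that entered were LRRC28, ARG2, KLF13, BDH1, PVALB and C1QA. This list kept the scaling over 7 arrays and the genes with a value on all of them, and took brightness from the 5 remaining arrays. PVALB, with a mean of 10.77 over 7 arrays, was thus in this list but not among the bright genes defined above. With scaling and the choice of genes also taken from the 5 arrays alone, DNAAF1 and PANK1 stood in place of MYOD1 and C1QA. Again 6 of the 12 stayed. BDH1, which makes ketone bodies usable, was lowest on C18 at 8.74, with the others between 10.63 and 11.83. The complement gene C1QA, made by macrophages, ran from 10.64 on C24 to 13.36 on C18. Parvalbumin (PVALB), the calcium buffer of fast fibres, ran from 9.65 on C23 over 10.65 to 12.37 on C18. For LRRC28 and KLF13 the difference between the 2 spots departed from its mean over the arrays by up to 5.59 and 5.29. A difference between animals therefore cannot be told apart from one between spots.

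Testis germ cell genes varied most of all classes, with a median SD of 2.67 (1.99 without C17 and C20) and a class percentile from 22.9 to 74.4. PRM1, which packs sperm DNA, measured 17.81 on C20, 16.58 on C24, 16.44 on C22, 15.16 on C23, 13.50 on C21, 11.37 on C17 and 10.89 on C18. TNP1, the transition protein that precedes the protamines, ran from 6.62 on C18 over 11.15 to 14.25 on C20. Of the 16 members with 7 values 15 were highest on C20, against 16.5% of all genes with 7 values, the exception being PRM2, which lay near the lowest signals at 1.42. INSL3, a hormone of Leydig cells, also ran from 6.17 on C18 to 14.30 on C20. Of 29 listed genes 24 were measured, and 3 were well above background on all 8 treated arrays. The part of other tissue in these values was not tested.

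Thymocyte genes were highest on C17. DNTT, the polymerase that adds bases to rearranging antigen receptor genes, measured 13.77 on C17, with a median of 6.55 and a lowest value of 2.24 on C24. All 7 thymocyte genes with 7 values were highest on C17, CD8B at 12.73 among them, against 21.6% of all genes. Leukocyte genes were mixed, with C17 highest for 8 of 18 and lowest for 3, and with scores (the mean deviation of the members from their own means) of 1.03 on C17 and 0.87 on C20. The T cell receptor subunit CD3E reached 11.34 on C17, against 5.68 on C24, and the pan-leukocyte PTPRC 10.17 against 7.10. The class II antigen presentation gene BOLA-DRB3 was instead lowest on C17, at 11.53, and highest on C18, at 13.41. The median SD of the thymocyte class was 1.17, and 0.44 without C17 and C20, and that of the leukocyte class was 1.04, and 0.61 without them. Haemoglobin genes were highest on C17 too, HBA at 10.80 with a median of 8.29, and HBB at 8.22. The erythrocyte class was mixed, with C17 highest for 2 of 5 genes and C18, C23 and C24 for 1 each. AHSP, for example, measured 6.52 on C23 and 6.45 on C17. The part of other cells in the values of C17 was not tested.

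Class scores give, for each animal, the mean deviation of a class's members from their own means. C18 was low in slow fibre genes. Its slow fibre score was -0.61, with a median of 0.036 over the animals and a highest score of 0.39 on C23, and it was the lowest animal for 9 of 13 slow fibre genes. Over all genes with 7 values C18 was lowest for 17.8% and highest for 15.4%. The slow Z-disc protein MYOZ2 measured 13.66 on C18, with a median of 15.51 and a highest value of 15.86 on C17. The muscle LIM protein CSRP3 measured 14.03 on C18 and 16.04 on C23. MYH7 itself did not follow, at 18.10 on C18 with the lowest value, 17.90, on C17.

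**Figure D5:**
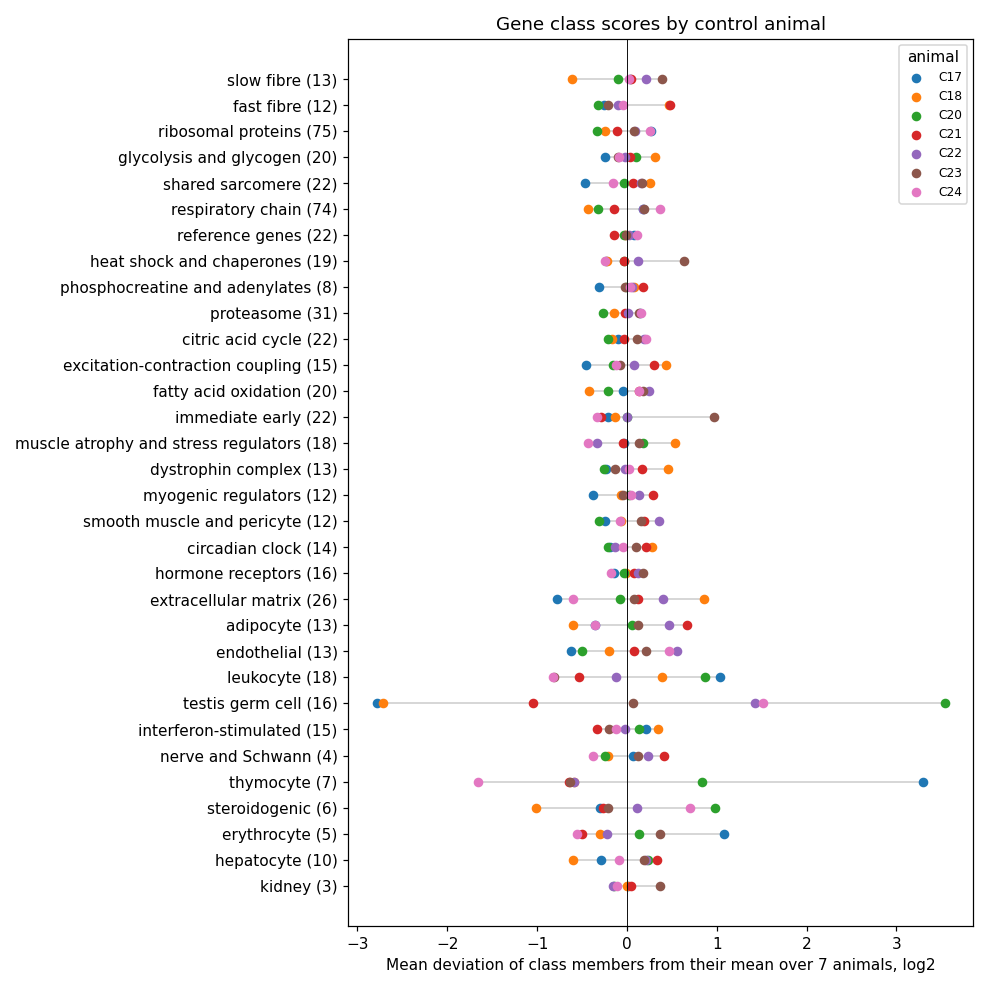
Class scores of the 7 control animals (coloured points), in log2 units, for the 32 classes in the order of their intensity rank, with the number of genes in brackets. C20 and C17 are the far points for testis germ cell (3.54) and thymocyte genes (3.29), and C23 for heat shock (0.63) and immediate early genes (0.97).

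Respiratory chain and fatty acid oxidation genes were low in C18. The respiratory chain score was -0.44 on C18, with a median of 0.18 and a highest of 0.37 on C24. C18 was the lowest animal for 45 of 74 members, and C24 the highest for 49, against 16.9% of all genes. The mitochondrially encoded COX3 was instead highest on C18, at 18.29. In the citric acid cycle C18 and C20 were each lowest for 7 of 22 genes (31.8%). Over all genes C18 was lowest for 17.8% and C20 for 30.2%, so the count on C20 is near its share over all genes. The complex I subunit NDUFC1 varied most in this class, from 12.53 on C18 over 13.62 to 13.97 on C24, while the ATP synthase subunit ATP5F1B varied least (SD 0.12). The fatty acid oxidation score was -0.42 on C18 and at most 0.24, on C22. The fatty acid carrier FABP3 measured 14.41 on C18, with a median of 15.94 and a highest value of 16.33 on C22.

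Fast fibre and glycolytic genes were high in C18. It was the highest animal for 8 of 12 fast fibre genes and 15 of 20 glycolysis and glycogen genes, against 15.4% of all genes. Its fast fibre score of 0.46 was close to the 0.48 of C21, with a median of -0.097. The fast alpha-actinin ACTN3 measured 17.05 on C18 and 15.56 on C17. The glycolysis score was 0.31 on C18, with a median of -0.017 and a lowest of -0.25 on C17. The calcium release channel RYR1 ran from 12.96 on C17 over 14.76 to 15.73 on C18. The fast myosin MYH1 ran from 16.25 on C17 over 18.08 to 18.38 on C18, with an SD of 0.75, whereas its second probe had an SD of 0.13 and the same order of the extremes.

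Connective tissue genes set C18 and C17 apart in opposite directions. The matrix score was 0.85 on C18, with a median of 0.075, and -0.78 on C17 and -0.60 on C24. C18 was highest for 19 of 26 members and C17 lowest for 16. Over all genes C18 was highest for 15.4% and C17 lowest for 17.4%. Collagen 1A1 (COL1A1) ran from 12.50 on C24 over 13.91 to 14.56 on C18, and collagen 3A1 (COL3A1) from 13.01 on C17 over 13.55 to 14.10 on C18. The matrix-binding glycoprotein SPARC was the steadiest bright member, at 15.71 ± 0.37. Adipocyte genes had another order, with C21 highest for 9 of 13 members (11.1% of all genes) and a score of 0.67, and C18 lowest at -0.60. FABP4, the carrier of fat cells, measured 8.17 on C18, 9.50 at the median and 11.12 on C21. Endothelial genes were highest on C22, with a score of 0.56, and lowest on C17, at -0.63.

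Stress-response genes singled out C23. Its heat shock score was 0.63, and the other animals lay between -0.24 and 0.12. C23 was highest for 16 of 19 members, against 11.2% of all genes. HSPA1A, the inducible 70-kDa chaperone, measured 17.07 on C23, with a median of 16.01 and a lowest value of 14.92 on C24. The co-chaperone DNAJB1 measured 12.75 on C23 and 9.47 on C18.

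Immediate early genes, which answer stimuli within minutes, gave the same animal. The score was 0.97 on C23, with C20 next at 0.00037, a score whose sign turned under other scalings. C23 was highest for 14 of 22 members, against 11.2% of all genes. The transcription factor EGR1 measured 13.17 on C23, with a median of 10.64 and a lowest value of 9.70 on C20. FOS measured 14.13 on C23, 13.05 at the median and 11.28 on C17. FOSB departed from this, with 14.45 on C21 and 15.54 to 16.25 on the others. A second FOSB probe read 9.87 and was lowest on C20, with r = 0.387 to the first, so the low value of C21 depends on the probe.

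Of the 21 genes of muscle atrophy and stress regulation 12 were bright, and the class median SD was 0.69. The ubiquitin ligase TRIM63, which tags sarcomere proteins, ran from 15.09 on C21 over 16.54 to 16.72 on C23. FBXO32 was steadier, at 14.30 ± 0.38. PDK4, the kinase that restrains glucose oxidation, ran from 13.27 on C24 over 14.53 to 15.18 on C20, and the mitochondrial carrier UCP3 from 12.60 on C23 over 13.50 to 14.62 on C18. The glucose uptake inhibitor TXNIP had the smallest SD of the bright members, 0.28. The growth inhibitor myostatin (MSTN) had a mean of 3.29 over the 4 arrays with a value, near the lowest signals.

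The proteasome and ribosomes were among the steadiest classes. The median SD was 0.22 for the proteasome, 0.25 for the citric acid cycle and 0.26 for ribosomal proteins. Only the erythrocyte class was lower, at 0.21 over 5 genes, none of them bright. Since SD falls with intensity, bright members compare better with bright genes. Their median SD was 0.19 for the proteasome, 0.24 for the citric acid cycle and 0.23 for ribosomal proteins, against 0.28 over all bright genes. The ATPase subunit PSMC4 had an SD of 0.066, from 13.29 on C18 over 13.39 to 13.51 on C23. Among ribosomal proteins RPL18 had an SD of 0.081 and RPL4 one of 0.65, from 12.52 on C20 over 13.79 to 14.43 on C24. Without C17 and C20 the SD of RPL4 was 0.28. The ribosomal score lay between -0.34 on C20 and 0.26 on C17. The lowest and the highest class scores given above kept their signs under 5 scalings of the arrays, but sizes moved. The ribosomal score ran from 0.053 to 0.27 on C17 and from -0.42 to -0.089 on C20, and the matrix and endothelial scores of C17 reached -1.27 and -1.16.

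Of 5 gene pairs tested across the 7 animals, none passed after adjustment. COL1A1 and COL3A1 had r = 0.85 (exact permutation p = 0.0157, adjusted 0.0784) and rho = 0.82 (exact p = 0.0341, adjusted 0.171), and r was 0.77 without C17 and C24. MYH7 and MYH1 had r = 0.71 (exact p = 0.0560, adjusted 0.140) and rho = 0.61 (exact p = 0.167, adjusted 0.417). That relation rests on C17, since r was 0.37 without it and 0.689 without C24, and -0.20 without both. It reached r = 0.865 without C23, with an adjusted exact p of 0.0139.

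FOS and EGR1 had r = 0.62 (exact p = 0.145, adjusted 0.242) and rho = 0.32 (exact p = 0.498, adjusted 0.556), and r was 0.14 without C17 and C23. This relation rests on C23, since r was 0.191 without it and 0.721 without C17. PDK4 and UCP3 had r = 0.30 (exact p = 0.521, adjusted 0.535) and rho = 0.39 (exact p = 0.396, adjusted 0.556), with r = 0.88 without C21 and C24. MYH7 and the slow troponin TNNT1, which stood in for TNNI1, had r = 0.28 (exact p and adjusted p = 0.535) and rho = 0.29 (exact p and adjusted p = 0.556), with r = 0.15 without C17 and C24. All tests were two-sided.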

How the data were processed

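Spot intensities from the authors' deposited value table were used, on a linear scale. Per the labels, these intensities are processed signals of Agilent Feature Extraction 9.5, after background subtraction and multiplicative detrending. The submitters' processing notes name R 2.11.1. The step that put the arrays on 1 scale is not stated in the labels used here. On the 8 treated arrays the deposited flags for signal above background served as a guide to detection. Scanner output, slides and scan days of the controls were not used here.

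Log2 values were shifted to an equal 75th percentile over probes with a value on all 7 arrays, spots were averaged per probe, and the brightest probe stood for a gene. Names came through identifiers, accessions or descriptions, mostly by way of RefSeq, for 17625 probes. A further 3850 had none, and 277 whose description named another gene were left out. Spread is the SD over animals. The F test over arrays used duplicate spots (limma 3.58.1, R 4.3.3) and was tested on simulated data. Correlations used exact permutation over all pairings, with Benjamini-Hochberg adjustment over 5 pairs.

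Named genes were the 2 brightest members of each class, the most and the least variable bright member of each class, the 12 bright genes at each end of the SD (also without C17 and C20), a set of muscle and reference genes, the pair genes, and PRM1, TNP1 and DNTT. Other genes in the text were chosen after their values were seen. The animals, classes and gene lists were chosen with earlier results of these data known. Alternatives covered scaling, animals left out, dim probes, the probe for a gene, the measure of spread and the limit for bright genes. With 1 array per animal, n = 7 limits the precision.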

Additional observations from a re-analysis of the deposited data

Results flagged for a closer look

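In groups of 7, an animal is listed where its gap to the nearest other animal, divided by the whole range, passed Dixon's 95% critical value, and chance lists about 1 in 20 groups. This held for 10 of 137 named genes, 4 of 32 class scores and 190 (6.35%) of all bright genes. Some named genes were chosen for a large or small SD, so the rate by chance does not apply to them. C18 stood above the others for ALDOA (18.697, others 18.31 to 18.42), GAPDH (18.534, others 18.11 to 18.29), MYOZ1 (18.413, others 18.06 to 18.19), SGCA (14.08, others 13.66 to 13.81) and TPM1 (18.264, others 17.81 to 17.92). SGCA is a dystrophin-associated membrane protein and TPM1 a tropomyosin. C18 stood below the others for BDH1 (8.737). C21 was low for FOSB (14.447), whose second probe was lowest on C20 instead. C21 was high for LRRC28 (15.359, others 12.14 to 12.56), where the duplicate spots disagreed. C22 was low for GSTO1 (7.327) and C20 low for SYT4 (4.521).

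Among class scores, C23 was high for heat shock and chaperones (0.6308), for immediate early genes (0.9656) and for kidney genes (0.3709, others -0.16 to 0.039), a score that rests on 3 dim genes. C17 was low for phosphocreatine and adenylate genes (-0.3147, others -0.023 to 0.18).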

How the results depend on the processing

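Of the 12 least variable genes, 6 stayed with bright set at the 90th percentile, 2 with equal medians, 4 with the median absolute deviation, 1 with quantile normalization, 5 with the values as deposited and 6 without C17 and C20. Leaving out 1 animal kept between 6 (without C17) and 10. With spot variance taken off this list could not be ordered, since 27 bright genes, 7 of the 12 among them, fell to 0. Of the 12 most variable genes, 1 stayed with bright at the 90th percentile, 3 with bright at the median, 6 with the median absolute deviation, 6 with the detection filter from the treated arrays and 6 without C17 and C20. Leaving out 1 animal kept 7 (C17, C18 or C20) to 11. COL1A1 and COL3A1 passed an adjusted exact p of 0.05 with equal medians (r = 0.888), quantile normalization (r = 0.891) and the deposited values (r = 0.875), and had r from 0.792 to 0.904 with 1 animal left out. MYH7 and MYH1 passed with the deposited values (r = 0.850) and without C23 (r = 0.865), with r from 0.37 to 0.865 over the animals left out. MYH7 and TNNT1 passed with quantile normalization (r = 0.836), an alternative whose pair was chosen after seeing the data. The causes were not tested. Class percentiles moved by over 1 SD in 32 of 448 recalculations, 25 of them with the detection filter, and class SDs moved in 13 of 512. The F test called 86.3% of 10868 probes without C17 and C20 and 91.7% to 98.0% of probes under the other alternatives. The sign of 47 of 224 class scores turned under at least 1 scaling, most often on C20. No paired analysis was possible because the 2 groups of the series share no animal number and only the controls were analysed. The dimmest probes give signals that the treated arrays did not place above background, and detection on the control arrays is not known here.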
